A study of Mus musculus with 8 samples.

Results

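Fibroblast growth factors (FGFs), the chemokine CXCL12 and the cytokine CSF1, with their receptors, are signals that reach germ cells and their neighbors in the testis. The genes described here are 10 members of these 3 systems: Fgf2, Fgf8, Fgf9, Fgfr1, Fgfr2, Fgfr3, Cxcl12, Cxcr4, Csf1 and Csf1r. They were chosen by name, as all non-control probes whose gene name in the array files is one of these symbols, which gave 23 of the 41174 probes on the array. Whole testes of mice at postnatal day 8 were profiled, 4 samples of wild type and 4 of VRK1-deficient animals, each on its own array. VRK1 is a serine/threonine kinase of dividing cells. The VRK1-deficient mice carry a gene-trap insertion with a β-geo reporter in an intron of Vrk1, derived from the single ES cell clone RRR178, and keep some full-length VRK1, so they are a hypomorph and not a null. The line was backcrossed to C57BL/6, and the labels name no treatment for either genotype. In whole testis RNA, fewer cells of a type and less RNA per cell cannot be told apart.

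FGFs bind tyrosine kinase receptors together with heparan sulfate chains and act through the MAP kinase pathway, which also switches on its own inhibitors. FGF2 is used with GDNF to grow spermatogonial stem cells in culture, and FGF9 is known for its role in the development of the fetal testis. CXCL12 is made by somatic cells and attracts cells that carry CXCR4, among them spermatogonial stem cells, whereas CSF1 acts on CSF1R, best known as the receptor that keeps macrophages alive.

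The probes that carried the differences are shown here as the first 30 bases of each 60-base probe, so that the transcript they read can be found. Both probes of Cxcl12 are shown because they read different transcript variants.
Cxcl12 A_52_P685021: gaattaatcataaacggaagtttaaatgag
Cxcl12 A_51_P172502: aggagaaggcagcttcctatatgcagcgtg
Fgf8 A_51_P101975: ggcacagcaaaggggaggggctggggagct
Fgf9 A_51_P497152: gtgtcttcacttgagcccttaaaacataac
The array files place them on mouse build mm7. The first Cxcl12 probe lies at chr6:117200799-117200858 on the plus strand and is annotated to NM_021704, transcript variant 1. The second lies at chr6:117207552-117207611 on the plus strand and is annotated to NM_013655, transcript variant 2. The Fgf8 probe (NM_010205) lies at chr19:45633777-45633836 on the minus strand, and the Fgf9 probe (NM_013518) at chr14:52977509-52977568 on the plus strand. Exon and UTR annotation of that build was not used here.

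Signals are given on a log2 scale on which 0 is the 75th percentile of the array, after background subtraction, and a difference of 1 is a 2-fold change. A probe was tested with limma if 4 or more of the 8 arrays read it well above background, and was called at an adjusted p (Benjamini-Hochberg over the 26948 probes tested) under 0.05. Of the 23 member probes, 17 were tested and 6 were not, and each of the 17 was well above background on all 8 arrays. Fgf2 had no tested probe. Differences are VRK1-deficient minus wild type throughout, and the median difference over all tested probes was 0.04. Vrk1 itself ranged from -0.20 to 0.59 in wild type and from -4.16 to -3.58 in VRK1-deficient testes with 1 of its 2 probes (a difference of -4.00, SE 0.21, limma adjusted p = 0.000135), in the direction of the labels. Wild type replicate 1 stood apart: its signals correlated at 0.970 to 0.986 with the other wild type arrays and at 0.987 to 0.990 with the VRK1-deficient arrays (Pearson's r over probes, a description). The arrays lay on 2 slides, and on each slide the wild type arrays held 1 pair of positions and the VRK1-deficient arrays the other, so that position and genotype cannot be told apart. The study describes the 4 samples of a genotype as biological replicates, and their number limits the precision of each value.

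Fgf8 fell, and Fgf9 and Cxcl12 rose, in VRK1-deficient testes. These 3 called probes were 1 lower and 2 higher of the 17 tested, against 3.64% of all tested probes called (1.97% lower and 1.68% higher). For 4 of the 17 the genotypes were fully separated (1 lower, 3 higher), which held for 16.7% of all tested probes (7.28% lower and 9.43% higher). At an unadjusted limma p under 0.05 there were 4 of the 17, against 28.8%. The methods' t-test, run on the same values, put 4 of the 17 at an unadjusted p of at most 0.05 (the methods' cutoff), against 26.2% of all tested probes. After Benjamini-Hochberg adjustment it called the first Cxcl12 probe only, against 0.805%. The 14 other probes did not pass, and 6 of the 9 genes tested had no called probe. Over the 17 probes the median difference was 0.09, with 9 positive and 8 negative.

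**Figure D1:**
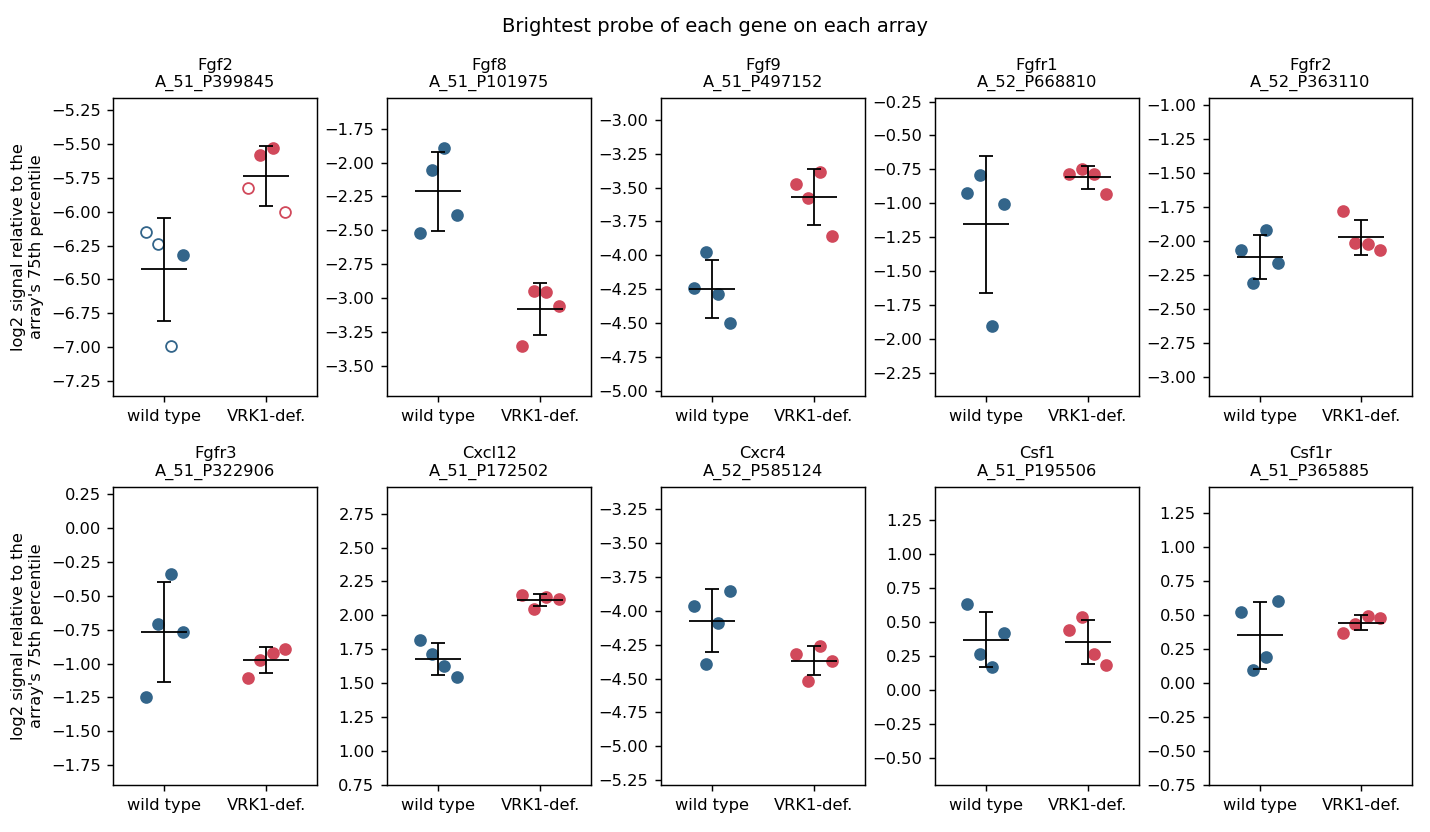
Signal of the brightest probe of each of the 10 genes on each array (log2 relative to the array's 75th percentile; blue wild type, red VRK1-deficient; open points not well above background; lines mean, bars SD over 4 arrays; all panels span the same height). Fgf8 is lower and Fgf9 and Cxcl12 are higher on every VRK1-deficient array, and the Fgf2 points lie at the limit of detection.

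Among the ligands, Fgf8, a growth factor best known from the embryo, was at -2.52, -2.05, -1.89 and -2.39 in wild type replicates 1 to 4. It was at -3.35, -2.95, -2.95 and -3.05 in VRK1-deficient replicates 1 to 4. Every VRK1-deficient array lay below every wild type array. The difference was -0.87 (SE 0.17, 95% confidence interval -1.24 to -0.49, limma adjusted p = 0.0445), so that the wild type signal was 1.82-fold that of the VRK1-deficient arrays. It was -0.867 on slide 1 and -0.865 on slide 2. This probe is printed 10 times on each array, and 7 to 10 spots were used. The SD among its spots was 0.10 at the median array, below the SD of 0.29 among wild type arrays and of 0.19 among VRK1-deficient arrays. A second Fgf8 probe was not well above background on any array.

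Germ cell genes also had lower signals in VRK1-deficient testes. All 11 tested genes of a pan germ cell list had negative differences, with a median of -1.11, against 0.04 over all 17939 tested genes. Of these, the study had already listed Dazl, Epcam, Mov10l1 and Rnf17 as lower in the same arrays, so their direction was known beforehand. The same holds for Stra8, Crabp1 and Lin28a in the spermatogonia lists below. Tdrd1, a Tudor protein of the piRNA pathway, was the 1 called (-1.11, SE 0.26, limma adjusted p = 0.0499). Without wild type replicate 1 all 11 were called lower, against 14.7% of all tested probes called lower in that setting. The summed level of the list, in multiples of the 75th percentile, was 29.5 to 81.9 in wild type and 21.0 to 35.3 in VRK1-deficient. The mean of the list was lowest among wild type arrays in replicate 1 (0.03, against 0.99 to 1.60 in the others), where Fgf8 was also lowest. Wild type replicate 4 was nearly as low in Fgf8 (-2.39 against -2.52), with a list mean of 1.34. By their brightest probe, 4.08% of all 17939 genes were called with all arrays (2.19% lower and 1.9% higher). Among differentiating spermatogonia genes, 2 of 8 were called and both fell: the methyltransferase Dnmt3b (-1.05, limma adjusted p = 0.0475) and Dmrtb1 (-1.81, 0.0493). Among undifferentiated spermatogonia genes, 2 of 17 were called: Sall4, a zinc finger factor of progenitors, fell (-0.99, limma adjusted p = 0.0493) and Bcl6b, a factor induced by GDNF, rose (0.61, 0.0499). The part of these shifts in the Fgf8 difference was not tested.

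Fgf9 was at -4.24, -3.97, -4.29 and -4.50 in wild type replicates 1 to 4. It was at -3.47, -3.58, -3.38 and -3.86 in VRK1-deficient replicates 1 to 4. The genotypes did not overlap, and the nearest pair was wild type replicate 2 and VRK1-deficient replicate 4. The difference was 0.68 (SE 0.15, 95% confidence interval 0.34 to 1.02, limma adjusted p = 0.0493), or 1.60-fold higher in VRK1-deficient. It was 0.58 on slide 1 and 0.77 on slide 2. With slide as a block the adjusted p was 0.0509, just above the threshold. A single spot on each array carried this value.

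Fgf2 could not be compared. Its first probe was well above background on 1 wild type and 2 VRK1-deficient arrays, and its second on none. The first probe lay between -6.99 and -6.15 in wild type and between -6.00 and -5.53 in VRK1-deficient. Its 10 spots per array had a median SD of 0.24, more than 2 times the 0.10 of Fgf8. The array files map its 60 bases across chr3:37159793-37207012 of mm7, a stretch of 47220 bases, so the probe reads spliced Fgf2 RNA.

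Cxcl12 gave the smallest p of the 17 probes. The probe for variant 1 was at -0.38, -0.45, -0.36 and -0.39 in wild type replicates 1 to 4. It was at 0.49, 0.25, 0.39 and 0.33 in VRK1-deficient replicates 1 to 4. The wild type arrays lay close together (SD 0.04), and every VRK1-deficient array was above all of them. The difference was 0.76 (SE 0.10, 95% confidence interval 0.53 to 0.99, limma adjusted p = 0.031), or 1.69-fold higher in VRK1-deficient. It was 0.79 on slide 1 and 0.73 on slide 2.

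The probe for variant 2 was at 1.82, 1.72, 1.62 and 1.55 in wild type replicates 1 to 4. It was at 2.15, 2.05, 2.14 and 2.12 in VRK1-deficient replicates 1 to 4. Here too the genotypes did not overlap. The difference was 0.44 (SE 0.10, 95% confidence interval 0.20 to 0.67), and the limma adjusted p of 0.0531 missed the threshold. With the mean of both probes the difference was 0.60 (limma adjusted p = 0.0299). The difference between the 2 probes within an array shifted by 0.32 between genotypes (two-sided exact permutation test, p = 0.0286, the smallest that 70 labellings allow). After adjustment over the 11 pairs of probes of the same gene this p was 0.105, so unequal shifts of the variants were not shown.

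**Figure D2:**
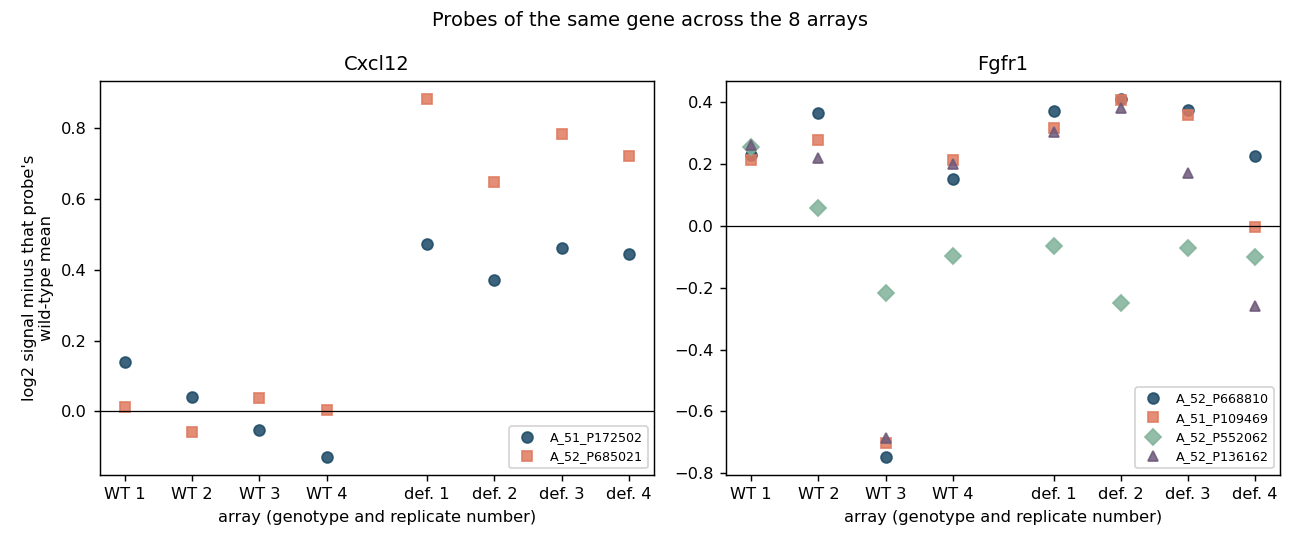
Signal of each tested probe of Cxcl12 (left) and Fgfr1 (right) on each array, as the log2 difference from that probe's wild type mean; the horizontal axis gives the genotype (WT wild type, def. VRK1-deficient) and replicate number. Both Cxcl12 probes are above their wild type mean on the 4 VRK1-deficient arrays, and 3 of the 4 Fgfr1 probes are low together in wild type replicate 3.

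The promoters of the 2 genes that rose are shown as the 250 bases before the RefSeq start (GRCm38.p6), Cxcl12 at chr6:117168285-117168534 and Fgf9 at chr14:58072436-58072685, both on the plus strand. Capitals mark GGGCGG or its reverse complement CCGCCC, the GC box.
Cxcl12 promoter: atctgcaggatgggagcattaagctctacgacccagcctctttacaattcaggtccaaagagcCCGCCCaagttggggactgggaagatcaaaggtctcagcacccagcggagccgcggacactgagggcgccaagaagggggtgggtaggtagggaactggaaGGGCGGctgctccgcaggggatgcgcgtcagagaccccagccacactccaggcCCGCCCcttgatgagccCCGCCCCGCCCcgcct
Fgf9 promoter: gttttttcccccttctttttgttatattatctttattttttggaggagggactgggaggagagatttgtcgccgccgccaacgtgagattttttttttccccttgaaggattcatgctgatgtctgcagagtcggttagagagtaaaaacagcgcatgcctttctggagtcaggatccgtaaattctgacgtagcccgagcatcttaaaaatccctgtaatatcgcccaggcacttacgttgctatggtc
Cxcl12 holds 5 matches, of which the last 2 overlap, and Fgf9 holds 0. Of 32851 RefSeq promoters cut to the same 250 bases, 32.7% hold at least 1. The bases G and C make up 64.4% of the Cxcl12 stretch and 44.8% of the Fgf9 stretch, against a median of 52.4% over all promoters. Neither holds TATAAA on either strand, which 12.4% of promoters do.

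Csf1, the macrophage growth factor, did not pass. It was at 0.63, 0.26, 0.16 and 0.42 in wild type replicates 1 to 4 and at 0.44, 0.54, 0.26 and 0.18 in VRK1-deficient replicates 1 to 4. The arrays overlapped over most of their range. The difference was -0.02 (SE 0.14, limma adjusted p = 0.95), and its 95% confidence interval of -0.33 to 0.30 leaves room for changes of that size in either direction. The 10 spots of this probe had a median SD of 0.06.

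**Figure D3:**
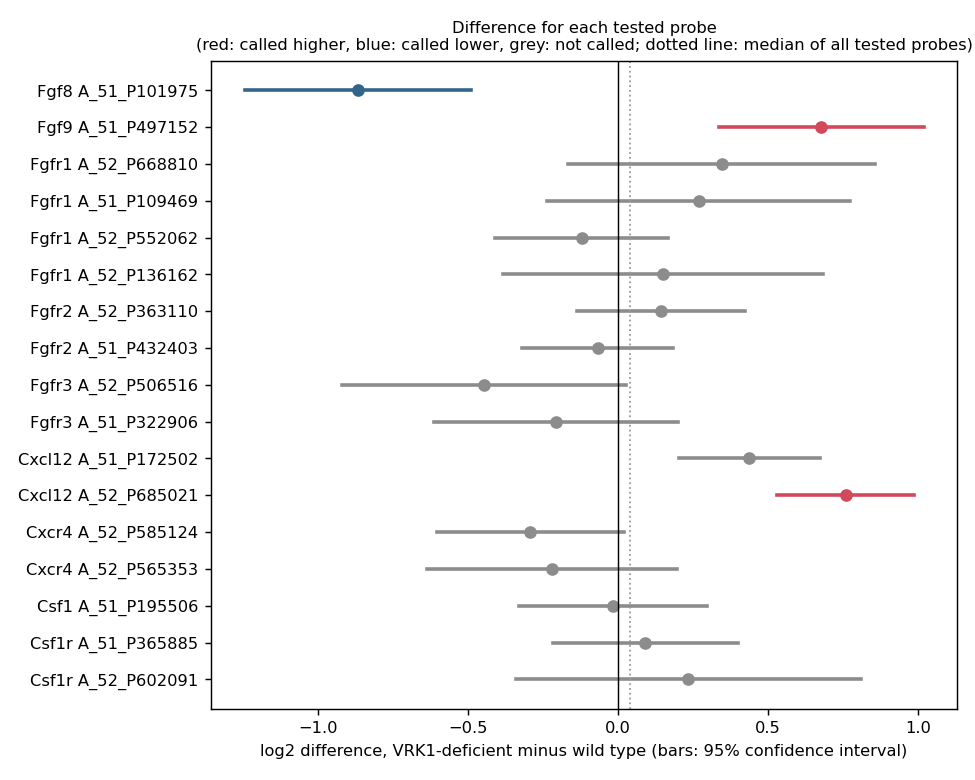
Log2 difference (VRK1-deficient minus wild type) of the 17 tested probes with 95% confidence intervals from limma; blue called lower, red called higher, grey not called, dotted line the median of all tested probes. Among ligand probes the intervals of Fgf8, Fgf9 and both Cxcl12 probes lie to 1 side of 0, and every receptor interval includes 0.

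No receptor probe was called. Fgfr1, a receptor of FGF2 and many other FGFs, had 4 tested probes with differences of 0.35, 0.27, 0.15 and -0.12 (limma adjusted p from 0.334 to 0.699). Wild type replicate 3 was low on the first 3 of these, at -1.90, -2.24 and -4.34, whereas the other wild type arrays were at -1.002 to -0.79, -1.33 to -1.26 and -3.46 to -3.40. Without that array the difference of A_52_P136162 turned to -0.08. Its level on the fourth probe was -3.15, also the lowest of the wild type arrays, which lay between -3.02 and -2.67 otherwise. The fourth probe maps to chr8:24288465-24288524 of mm7, and A_52_P136162, the last of those 3, to chr8:24326167-24326226.

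The first 2 Fgfr1 probes overlap and are shown whole, as their shared 39 bases make them near repeats of the same measurement. Capitals mark the 1 base at which they differ, which is A36G counted from the 5′ end of the second sequence.
Fgfr1 A_51_P109469: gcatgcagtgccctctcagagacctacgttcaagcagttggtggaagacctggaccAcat
Fgfr1 A_52_P668810: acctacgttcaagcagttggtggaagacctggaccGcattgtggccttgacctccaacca
They lie at chr8:24330044-24330103 and chr8:24330065-24330124 of mm7. Their difference within an array averaged -0.39 over the wild type arrays, with an SD of 0.07, and -0.46 over the VRK1-deficient arrays, with an SD of 0.10. The low value of wild type replicate 3 was read by both, in the first of them over 10 spots with an SD of 0.07.

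Fgfr2, which binds several FGFs in epithelia, had differences of 0.14 and -0.07 with 2 tested probes (limma adjusted p = 0.462 and 0.713). Its intervals reached from -0.14 to 0.42 and from -0.32 to 0.18. Another Fgfr2 probe was not well above background on any array. The deviations of the 2 tested probes from their genotype means ran in opposite directions (Pearson's r = -0.55 over 8 arrays, a description), so array-to-array differences in Fgfr2 were not read alike by them.

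Fgfr3, a receptor known as a marker of human spermatogonial stem cells, had negative differences with both tested probes. The first was at -1.35, -0.64, -0.26 and -0.56 in wild type replicates 1 to 4 and at -1.23, -1.11, -1.11 and -1.13 in VRK1-deficient replicates 1 to 4. Wild type replicate 1 lay below every VRK1-deficient array, and the 3 other wild type arrays lay above all of them. The difference was -0.45 (SE 0.21, 95% confidence interval -0.92 to 0.03, limma adjusted p = 0.193). Without wild type replicate 1 it was -0.66 and passed the test (limma adjusted p = 0.00759). In that setting 28.4% of all tested probes were called (14.7% lower). Without any one of the other arrays the limma adjusted p of this probe was 0.268 to 0.355. The second probe differed by -0.21 (limma adjusted p = 0.469) and by -0.37 without wild type replicate 1 (limma adjusted p = 0.0714). As with Fgf8, the array with the low value was the wild type array lowest in germ cell genes. Whether germ cell content bears on the Fgfr3 values was not tested.

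The Fgfr3 probes overlap by 37 bases, of which 30 are shown, with the 1 base at which they differ in capitals (T5C, counted from the 5′ end of the second sequence, which is the first probe above).
Fgfr3 A_51_P322906: ggcaTggcagttttgtttgtactggacctg
Fgfr3 A_52_P506516: ggcaCggcagttttgtttgtactggacctg
They lie at chr5:32799418-32799477 and chr5:32799441-32799500 of mm7 on the plus strand. Their difference within an array averaged 0.07 over the wild type arrays, with an SD of 0.13, and -0.17 over the VRK1-deficient arrays, with an SD of 0.05, without overlap (exact permutation test, p = 0.0286, adjusted over 11 pairs 0.105). Another Fgfr3 probe was not well above background on any array.

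Cxcr4, the receptor of CXCL12, was not called with either probe. Its first probe was at -3.96, -4.39, -4.09 and -3.85 in wild type replicates 1 to 4 and at -4.32, -4.52, -4.26 and -4.37 in VRK1-deficient replicates 1 to 4. Only wild type replicate 2 lay among the VRK1-deficient arrays. The differences of its 2 probes were -0.29 (SE 0.14, 95% confidence interval -0.60 to 0.02, limma adjusted p = 0.196) and -0.22 (SE 0.18, -0.63 to 0.20, 0.449). With the normexp background correction both were positive, at 0.14 and 0.14, so no direction is given for Cxcr4.

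Csf1r, on mouse chromosome 18, had differences of 0.09 (limma adjusted p = 0.682) and 0.23 (0.565) with 2 tested probes. The brighter was at 0.52, 0.09, 0.19 and 0.60 in wild type replicates 1 to 4 and at 0.37, 0.43, 0.49 and 0.48 in VRK1-deficient replicates 1 to 4. All VRK1-deficient values fell inside the wild type range. The remaining probe was well above background on 2 wild type arrays and no VRK1-deficient array, at a signal too low for a bound on the fold. None of 18 tested macrophage genes was called, with a median difference of 0.09. There was 1 at an unadjusted limma p under 0.05, against 5308 of all 17939 genes. The summed level of these genes was 18.2 to 26.0 in wild type and 23.2 to 27.1 in VRK1-deficient. Lyz2, the brightest of them (mean 3.46 in wild type and 3.72 in VRK1-deficient), weighs most in that sum. Cd163 and Itgam, both macrophage markers, were not well above background on enough arrays to be tested.

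Spread also differed between the genotypes. The SD was larger among wild type than among VRK1-deficient arrays for 16 of the 17 member probes, against 78.3% of all tested probes. The median SD of the member probes was 0.25 in wild type and 0.11 in VRK1-deficient, and over all tested probes it was 0.27 and 0.16.

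**Figure D4:**
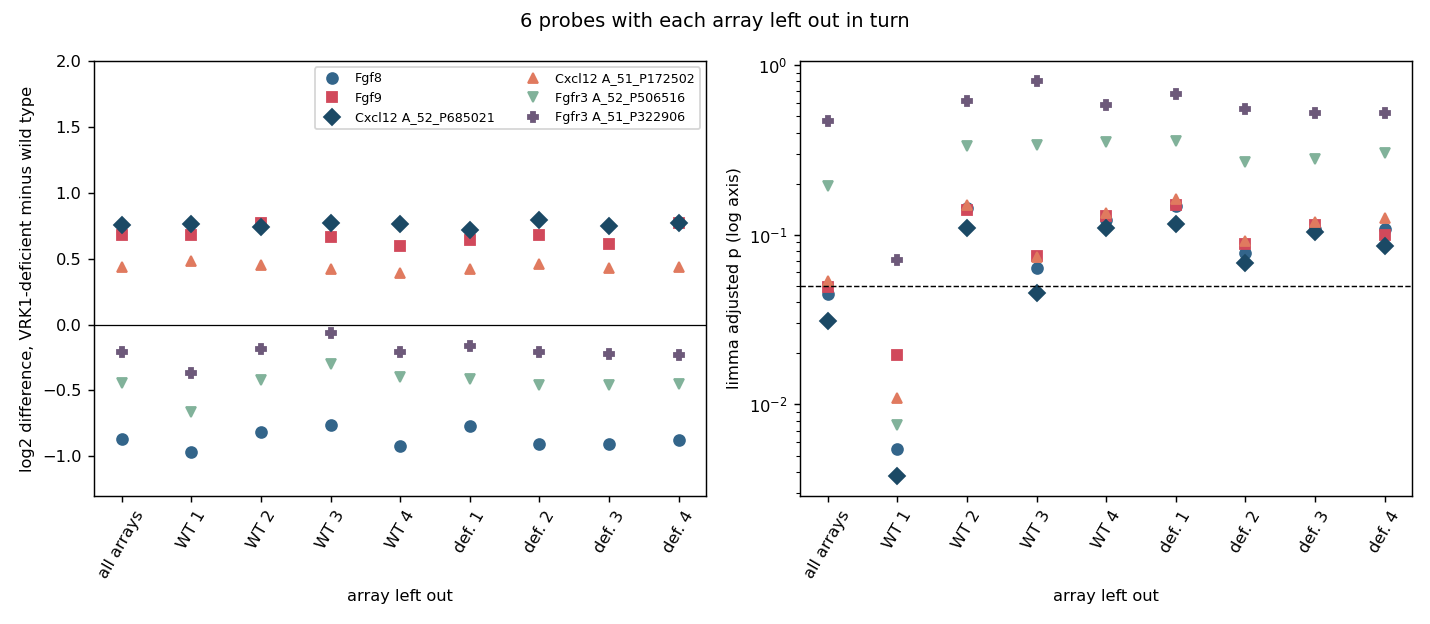
Log2 difference (left) and limma adjusted p (right, log axis, dashed line at 0.05) of 6 probes with all arrays and with each array left out (WT wild type, def. VRK1-deficient). The differences keep their sign in every column, which was fixed beforehand for the Fgf8, Fgf9 and Cxcl12 probes, whose genotypes did not overlap. The adjusted p of each probe is lowest without wild type replicate 1. Only the Cxcl12 variant 1 probe also passes without wild type replicate 3.

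The calls changed with the array left out while the differences moved little. With each array left out in turn, the difference of Fgf8 ranged from -0.97 to -0.76, that of Fgf9 from 0.59 to 0.77 and that of the first Cxcl12 probe from 0.72 to 0.80. Without wild type replicate 1, 5 member probes were called, namely Fgf8, Fgf9, both Cxcl12 probes and the first Fgfr3 probe, against 28.4% of all tested probes called in that setting. Without wild type replicate 3, 1 member probe was called, against 68 of all 26948 tested probes. Without any one of the other 6 arrays limma called none, and the count over all tested probes was then 3 to 10. Of the 17, 4 to 6 were then at an unadjusted limma p under 0.05. The share of all probes at that cutoff was not worked out in these settings. The background correction and scaling mattered too. With normexp, Fgf8 differed by -0.45 (limma adjusted p = 0.0726) and Fgf9 by 0.42 (0.0566), and neither was called. On unscaled signals Fgf9 differed by 0.50 (0.265) and the first Cxcl12 probe by 0.58 (0.122), and neither was called.

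Other genes of the FGF system were read from lists. Of 15 FGF response and feedback genes tested, 1 was called, against 4.08% of all genes by their brightest probe (2.19% lower and 1.9% higher). Etv1, an ETS factor switched on by FGF signals, rose by 0.64 (SE 0.12, limma adjusted p = 0.0445), from a mean of 0.55 (SD 0.15) to one of 1.19 (SD 0.13). Of the list, 13 genes had positive and 2 negative differences, with a median of 0.35, and 6 did not overlap between genotypes, against 17.7% of all genes. Egr1, an immediate early gene, had the largest positive difference (0.82, limma adjusted p = 0.106) and the cyclin Ccnd1 the largest negative one (-0.49, 0.285). Without wild type replicate 1, 6 of the 15 were called, all higher, against 13.6% of all tested probes called higher in that setting. The Sertoli and Leydig lists had positive medians too, which were 0.33 (14 genes) and 0.36 (8 genes), with no gene called in either. At an unadjusted limma p under 0.05 there were 7 and 4 genes, against 5308 of all 17939 genes. Without wild type replicate 1, 8 of the 14 Sertoli genes and 4 of the 8 Leydig genes were called higher, and 1 Sertoli gene lower. The summed level of the Sertoli genes was 305 to 425 in wild type and 396 to 469 in VRK1-deficient, and that of the Leydig genes was 34.7 to 52.5 and 45.9 to 58.8. The part of this shift in the values of the FGF response genes, Fgf9 and Cxcl12 was not tested.

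Of 15 other FGF ligands, 4 were tested and 1 was called, against 4.08% of all genes. Fgf22, of the FGF7 family, fell by 1.61 on the log2 scale (SE 0.34, limma adjusted p = 0.0475). Fgf18 had a difference of 1.12 (SE 0.27) that missed the threshold (limma adjusted p = 0.0546). None of 3 FGF homologous factors, which act inside the cell, was called by limma (0 at an unadjusted p under 0.05), nor was any of 10 other receptors, co-receptors and adaptors (2, against 5308 of all 17939 genes). In the latter list Kl, which encodes the co-receptor Klotho, had the largest positive difference (1.18, limma adjusted p = 0.0935) and Fgfr4 the largest negative one (-0.16, 0.733). In the former, Fgf12 was at 0.10 (0.707) and Fgf11 at -0.11 (0.678).

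Of 19 genes for heparan sulfate chains and their core proteins, 3 were called, against 4.08% of all genes (2.19% lower and 1.9% higher). Sulf1, a sulfatase that trims heparan sulfate outside the cell, fell by 0.86 on the log2 scale (limma adjusted p = 0.0474). The syndecans Sdc2 and Sdc3, cell surface core proteins, rose by 0.76 (limma adjusted p = 0.0473) and 0.58 (0.0475). The median of the list was 0.13.

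None of 11 other genes of the CXCL12 axis was called, with 4 at an unadjusted limma p under 0.05, against 5308 of all 17939 genes. The adhesion molecule Vcam1 had the largest positive difference (0.67, limma adjusted p = 0.0607), and Ebf3, a factor of CXCL12-producing bone marrow cells, the largest negative one (-0.97, 0.0615). None of 11 other genes of the CSF1 axis was called, with 5 at an unadjusted limma p under 0.05. Flt3, a kinase related to CSF1R, was at 1.18 (limma adjusted p = 0.0594), and Kit, a further relative carried by differentiating spermatogonia and mast cells, was at -0.85 (0.0633).

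Markers of other somatic cells were read in the same way. Of 5 tested mast cell genes, 4 were called and all 4 rose: the proteases Cpa3 (1.90), Tpsb2 (1.59), Cma1 (1.54) and Mcpt4 (1.51), with limma adjusted p from 0.0292 to 0.0413. By their brightest probe, 4.08% of all genes were called (2.19% lower and 1.9% higher). In wild type the means of Cpa3 and Tpsb2 were -5.51 and -6.08, close to the signals of the untested Fgf2 probes. Those of Cma1 and Mcpt4 were -3.17 and -4.13. The filter of 4 of 8 arrays could be met by the VRK1-deficient arrays alone, so the calls of Cpa3 and Tpsb2 may rest on it. The defining mast cell receptor genes Fcer1a and Ms4a2 were not tested, being too dim. The summed level of the list was 3.69 to 6.42 in wild type and 5.17 to 6.96 in VRK1-deficient. Nearly all of that sum came from Hdc (mean 2.07 in wild type and 2.39 in VRK1-deficient), so it does not describe the 4 proteases. Hdc, which makes histamine, differed by 0.32 (0.302). None of 12 endothelial genes was called by limma (3 at an unadjusted p under 0.05, against 5308 of all 17939 genes). Their median was 0.25, with a summed level of 19.1 to 24.3 in wild type and 20.5 to 21.5 in VRK1-deficient. Robo4 and Egfl7, the brightest of the list, weigh most in that sum. They had negative differences (-0.24 and -0.28), whereas 9 of the 12 genes had positive ones. Of 8 peritubular genes, 1 was called and 7 were not. Cnn1, a smooth muscle calponin, fell by 0.99 on the log2 scale (limma adjusted p = 0.0445). The median of the list was -0.07, with 6 negative and 2 positive differences (Des 0.33 and Smtn 0.39). The summed level was 144.9 to 159.9 in wild type and 126.6 to 162.2 in VRK1-deficient. Most of that sum came from Acta2 (mean 6.70 in wild type and 6.64 in VRK1-deficient). Whether these values bear on the Cxcl12 and Fgf9 differences was not tested.

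**Figure D5:**
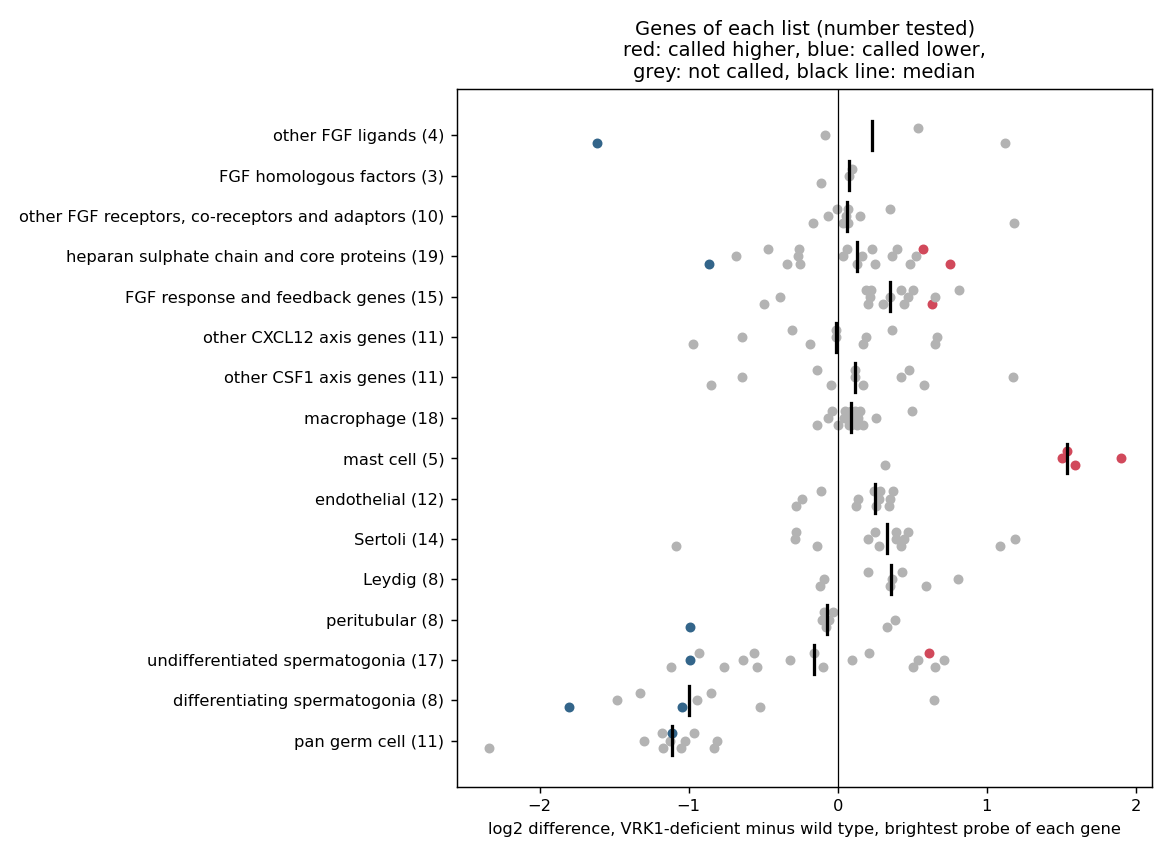
Log2 difference (VRK1-deficient minus wild type) of the brightest probe of each tested gene, by list, with the number tested in parentheses; red called higher, blue called lower, grey not called, black line the median. The pan germ cell genes all lie to the left of 0, the 5 mast cell genes to the right, and 13 of 15 FGF response genes to the right.

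The genes whose array-to-array deviations from the genotype means were most like those of a member were found among 14248 named genes by Pearson's r over 8 arrays, as a description. As the highest of 14248 values over only 8 arrays, these r are high by selection, and their size alone shows no likeness. The genes are given for Fgf8, Fgf9, Cxcl12 and Csf1r only. For Fgf8 these were Myb (0.98), Acap3 (0.97) and Dpp6 (0.97). For Fgf9 they were Wnt9b (0.98), Rplp0 (0.95) and Fmo5 (0.93). For Cxcl12 they were Pcdh9 (0.996), Mcrip1 (0.99) and Epha5 (0.98). Each gene was represented by its brightest probe, which for Cxcl12 is the variant 2 probe that was not called. The deviations of that probe and of the called variant 1 probe correlated at only 0.22, so this likeness does not carry over to variant 1. Pcdh9, a protocadherin, was called and rose by 1.41 on the log2 scale (limma adjusted p = 0.0499), while Myb and Wnt9b differed by -0.41 and -0.50 without passing. For Csf1r they were Thap1 (0.96), Fcgrt (0.95) and Hyou1 (0.92), and Fcgrt, the neonatal Fc receptor, was called and rose by 0.46 (limma adjusted p = 0.0493). Between members, the highest values were 0.84 for Fgf8 with Fgfr3 and 0.83 for Cxcr4 with Csf1r, and the lowest was -0.83 for Fgfr3 with Csf1.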

How the data were processed

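Total RNA of testes was labeled with Cy3 and hybridized to 1-color Agilent mouse arrays. The authors extracted the signals with Agilent Feature Extraction (version 9.5.3.1 in the submitters' processing notes), and the deposited values are processed signals, linear intensity values with background subtracted and not scaled between arrays. The deposited value table held the same signals (0 unequal values). Here outlier spots were left out (58 to 134 per array), log2 of the array's 75th percentile (548 to 848) was subtracted from the log2 signal, and the spots of a probe were averaged. Between 63.6% and 69.5% of spots were well above background, and no spot was saturated. Fits used limma 3.58.1 (lmFit, eBayes) in R 4.3.3, and plots Python 3.11.15 with matplotlib. Genes with several probes were taken by the brightest in the lists, with symbols updated through RefSeq's gene names. Tested on data simulated with independent normal noise, 86% of 200 probes changed by 1 to 2 log2 units were recovered among 26941. In that simulation 14 unchanged probes were called. Every tested member difference was below 1 log2 unit in size, so the recovered share does not apply to the members. The genes, lists and tests were chosen with earlier results of these data known. All member probes are reported. From each other list the called genes are named, or the largest fall and rise, and the 3 genes most like each member were sought. Cxcr7 in the CXCL12 list is an older name of Ackr3. Alternatives were quantile normalization, normexp, the unscaled table, 2 filters, slide or replicate number as a block, single slides, each array left out, the methods' t-test, a variance trend and gene means. Those for the lists were chosen after seeing the data.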

Additional observations from a re-analysis of the deposited data

Results flagged for a closer look

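Among 34 groups of 4 arrays (17 probes in 2 genotypes), 3 had an array far from the others of its genotype, judged by its gap to the nearest array over the whole range of the group. Chance flags about 1 in 20 groups. Wild type replicate 3 stood apart on the Fgfr1 probes A_51_P109469 (0.934, at -2.24 against a nearest value of -1.33) and A_52_P136162 (0.937, at -4.34 against -3.46). VRK1-deficient replicate 1 stood apart on the Fgfr2 probe A_52_P363110 (0.832, at -1.78 against -2.02). All 3 probes missed the threshold with all 8 arrays.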

How the results depend on the processing

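The 3 called member probes kept their direction under every alternative. Their genotypes did not overlap, so leaving out arrays, taking 1 slide or changing the test could not turn the sign. The number called did not hold. It was 1 with normexp (against 1386 of 26948 probes called), with the unscaled table (899) and with the methods' t-test (217). Limma called 0 without a filter on dim probes (where 17 of all probes were called) and on slide 1 or slide 2 alone. In these settings 4, 3 and 6 of the 17 member probes were at an unadjusted limma p under 0.05. The share of all probes at that cutoff was not worked out there. The number of member probes called ranged from 0 to 5 with each array left out. Over all tested probes the count was 982 and went to 626 with slide as a block, 3 on slide 1 alone, 1059 on slide 2 alone, 217 with the methods' t-test, 1920 with a variance trend and 3 to 7641 with each array left out. With unscaled values 835 were lower and 64 higher, against 530 and 452, as the median of all probes moved from 0.04 to -0.14 (0.12 with normexp), and the member differences relative to these medians shift accordingly. Of the 172 list genes tested, 15 were called, and the count went to 29 with normexp, 0 without a filter, 8 with slide as a block, 0 on slide 1, 27 on slide 2, 1 with the methods' t-test, 29 with a variance trend and 0 to 78 with each array left out. These list alternatives were chosen after seeing the data. Samples with the same replicate number did not all deviate together (r = 0.47, 0.07, 0.19 and -0.14), so the number was not taken as a pairing; with a replicate block 2280 probes, 3 member probes and 40 list genes were called.

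Signs turned only for probes that were not called. With normexp, Fgfr2 A_51_P432403 was at 0.19, Fgfr1 A_52_P552062 at 0.0214 and the Cxcr4 probes at 0.138 and 0.141. With the unscaled table, Csf1r A_51_P365885 was at -0.0871, Fgfr1 A_52_P136162 at -0.0293 and Fgfr2 A_52_P363110 at -0.0355. On slide 1, Csf1 was at 0.0399 and Cxcr4 A_52_P565353 at 0.14. On slide 2, Fgfr2 A_52_P363110 was at -0.0031 and Fgfr1 A_52_P552062 at 0.0727. With each array left out, Csf1 ranged from -0.0844 to 0.071, Fgfr1 A_52_P136162 from -0.0786 to 0.29 and Csf1r A_52_P602091 from -0.0093 to 0.37. The cause was not tested.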
